A study of Mus musculus with 12 samples.

Results

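The Nr4a orphan nuclear receptors comprise Nr4a1 (also known as Nur77), Nr4a2 (Nurr1) and Nr4a3 (Nor1). They were chosen by name, and each matched 1 of the 20989 gene loci in the files. RNA was sequenced from the auditory cortex of acute brain slices of 6 C57bl6/J mice at 4 weeks of age, with no transgene named in the labels. The slices were cut along the midline. 1 hemisphere of each mouse was incubated for 1 h in control aCSF (artificial cerebrospinal fluid), and the other for 1 h in cocktail aCSF. The cocktail held 50 µM (-)-Bicuculline methiodide, which blocks GABA type A receptors, 100 µM DL-Norepinephrin hydrochloride, 50 µM carbamoylcholine chloride, 100 µM Dopamine hydrochloride, 40 µM Ascorbic Acid and 100 µM Serotonin hydrochloride. All components were given together, so their parts cannot be told apart. The methods also describe a rest of both hemispheres for 1 h in aCSF after this incubation, a step missing from the labels. By that account RNA was taken after this rest without the cocktail, not at the end of the incubation. The design thus gives 6 control and 6 cocktail-treated hemispheres paired by mouse, and the p-values describe spread between animals. The labels do not say whether the left or right hemisphere received the cocktail. A difference between sides therefore cannot be told apart from the cocktail here.

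Nr4a proteins are transcription factors of the nuclear receptor superfamily. They are called orphan receptors because no classical hormone ligand is established for them, and their activity is thought to be set largely by how much protein is made. Their genes are immediate-early genes, transcribed within minutes of calcium or cAMP signals without new protein synthesis, in part through the transcription factor CREB, which binds the cAMP response element (CRE). The proteins bind DNA as monomers at the NBRE motif or as dimers, and Nr4a1 and Nr4a2 also pair with retinoid X receptors. In the brain Nr4a2 is known for its role in midbrain dopamine neurons and as a marker of deep cortical layers and the claustrum, and the family has been linked to long-term memory.

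The promoter windows of the 3 genes are shown because the genes rose in the same hemispheres and because CREB is a known inducer. Each window runs from 250 bases before to 50 bases after the RefSeq start site (300 bases, 5′ to 3′ on the strand of the gene, build GRCm38.p6, which has the coordinates of mm10). The windows are chr15:101266596-101266895 on the plus strand for Nr4a1, chr2:57123954-57124253 on the minus strand for Nr4a2 and chr4:48045055-48045354 on the plus strand for Nr4a3. Capitals mark the core motif of the CRE, TGACG, or its reverse complement CGTCA:
Nr4a1: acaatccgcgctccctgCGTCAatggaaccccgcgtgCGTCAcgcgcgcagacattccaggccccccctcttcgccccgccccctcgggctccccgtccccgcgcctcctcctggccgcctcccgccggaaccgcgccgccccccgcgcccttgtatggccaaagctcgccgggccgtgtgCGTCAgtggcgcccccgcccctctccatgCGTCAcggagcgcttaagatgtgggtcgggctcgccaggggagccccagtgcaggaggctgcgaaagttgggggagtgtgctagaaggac
Nr4a2: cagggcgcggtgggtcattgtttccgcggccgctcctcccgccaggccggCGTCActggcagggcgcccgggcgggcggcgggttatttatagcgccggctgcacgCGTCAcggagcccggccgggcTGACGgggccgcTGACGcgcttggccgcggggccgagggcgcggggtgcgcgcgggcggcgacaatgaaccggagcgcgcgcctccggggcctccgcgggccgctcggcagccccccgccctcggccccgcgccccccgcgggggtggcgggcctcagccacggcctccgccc
Nr4a3: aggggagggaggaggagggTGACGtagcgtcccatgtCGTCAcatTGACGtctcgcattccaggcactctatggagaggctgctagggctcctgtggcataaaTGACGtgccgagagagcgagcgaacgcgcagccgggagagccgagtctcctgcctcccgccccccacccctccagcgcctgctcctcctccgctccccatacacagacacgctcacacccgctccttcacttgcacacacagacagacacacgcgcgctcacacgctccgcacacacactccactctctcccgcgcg

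Each of the 3 windows held 4 core motifs, none overlapping another. In Nr4a1 all 4 lay on the reverse strand, at -233, -213, -69 and -40 bases from the start site, counted to the first base of the motif. In Nr4a2 they lay at -200, -144, -123 and -111, and in Nr4a3 at -231, -213, -205 and -147. The motif was searched on both strands after the sequences had been seen, and the palindromic full CRE, in which the core is followed by TCA, counts as 2 motifs. Of all 32851 promoter windows in the RefSeq table, 20.8% held at least 1 core motif and 0.231% held at least 4. The cut of 4, here and below, was taken from the count in these 3 windows. That the 3 genes reach it was thus fixed beforehand, and the shares at this cut are no test. The motif contains CpG, and the windows of the 3 genes were rich in G and C (72.3% in Nr4a1, 81.7% in Nr4a2 and 64.7% in Nr4a3, against a median of 52.7%). Among the 6218 windows with at least 64.7% G and C, 0.563% held at least 4 core motifs.

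**Figure D1:**
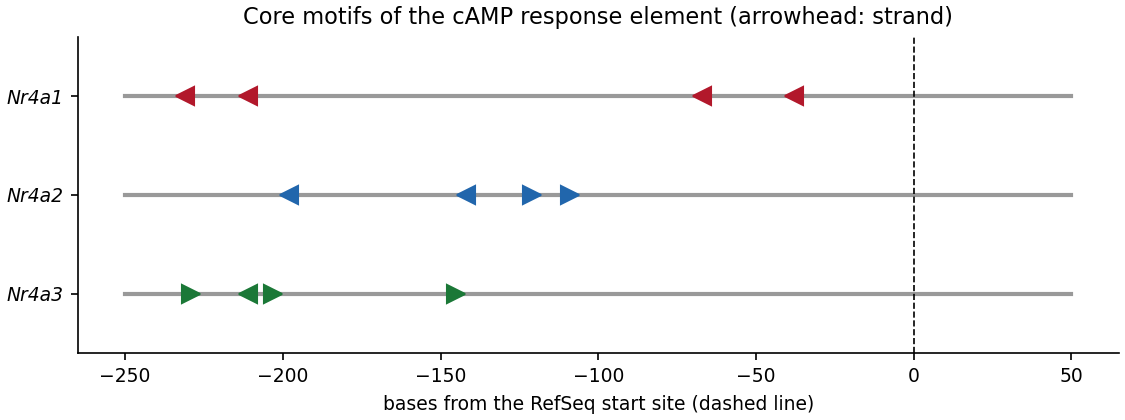
The horizontal axis gives the distance in bases from the RefSeq start site (dashed line), and each row is the promoter window of 1 gene, with an arrowhead for each core motif pointing along its strand. Each window holds 4 motifs before the start site, between -233 and -40 bases, and 0 after it.

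The full CRE was found in 0 of the 3 windows and in 1.79% of all windows. The NBRE, searched on either strand as AAA followed by GGTCA, was also found in 0 of the 3 and in 1.51% of all windows, and the CArG box of the serum response element in 0 of the 3 and in 1.63%. These counts say only that the exact letters searched were not in these 300 bases. Near matches were not counted, so a related element may still be present. Of 9172 other genes tested for expression below that had a promoter window, 55 (0.6%) held at least 4 core motifs in a window, and 2 of the 55, Coq10b and Tinf2, were called higher in the cocktail, against 101 of all 9172. At least 1 core motif was held by 56.4% of these 101 genes and by 36.3% of the 9172. Of the 44 rapid activity-regulated genes described below, 34 had windows (53 in all), of which 56.6% held at least 1 core motif and 0 held 4, against 30.9% and 0.535% of the windows of all genes tested. Of the 53 windows 11.3% held the full CRE and 11.3% the CArG box, against 3.04% and 1.28% of the windows of all genes tested. The rapid genes and the genes called higher are not separate sets, since 38 of the 44 rapid genes were called higher. The rapid list was also chosen with earlier results of these data known. These shares were not matched for G and C content, and the differences between them were not tested.

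On mm10, the Nr4a1 locus of the files lies on chromosome 15 from 101266846 to 101274794 (plus strand), Nr4a2 on chromosome 2 from 57107226 to 57124003 (minus strand) and Nr4a3 on chromosome 4 from 48051248 to 48083352 (plus strand). All are protein coding genes in GENCODE M21, and the number of other annotated genes that overlap these spans was 0. For Nr4a1 and Nr4a2 the start of the locus is the start site of the promoter window. For Nr4a3 the window belongs to a start site 5943 bases upstream of the locus, and is not that of the start of the locus itself.

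Expression is given as FPKM, the fragments on a gene scaled by transcript length and by the number of fragments counted on genes with a protein coding transcript. Levels of different genes can thus be set side by side, apart from biases particular to a gene. In control slices Nr4a1 ranged from 172.2 to 223.4 FPKM with a median of 197.7, and in cocktail-treated slices from 319.1 to 426.3 with a median of 337.8. The groups did not overlap, and the lowest cocktail value came from mouse 6. Nr4a2 ranged from 43.7 to 58.4 FPKM in control slices (median 52.5) and from 76.0 to 113.5 in cocktail-treated slices (median 89.8). Here too every cocktail hemisphere lay above every control hemisphere. Nr4a3 ranged from 31.4 to 47.4 FPKM in control slices (median 34.0) and from 45.2 to 83.1 in cocktail-treated slices (median 64.3). Its groups overlapped through 2 hemispheres, the control of mouse 1 at 47.4 and the cocktail of mouse 6 at 45.2, while the other 5 control values were at most 39.4. The groups of 2 of the 3 genes thus did not overlap, against 0.715% of all 12032 loci tested whose groups did not overlap and were higher in the cocktail.

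**Figure D2:**
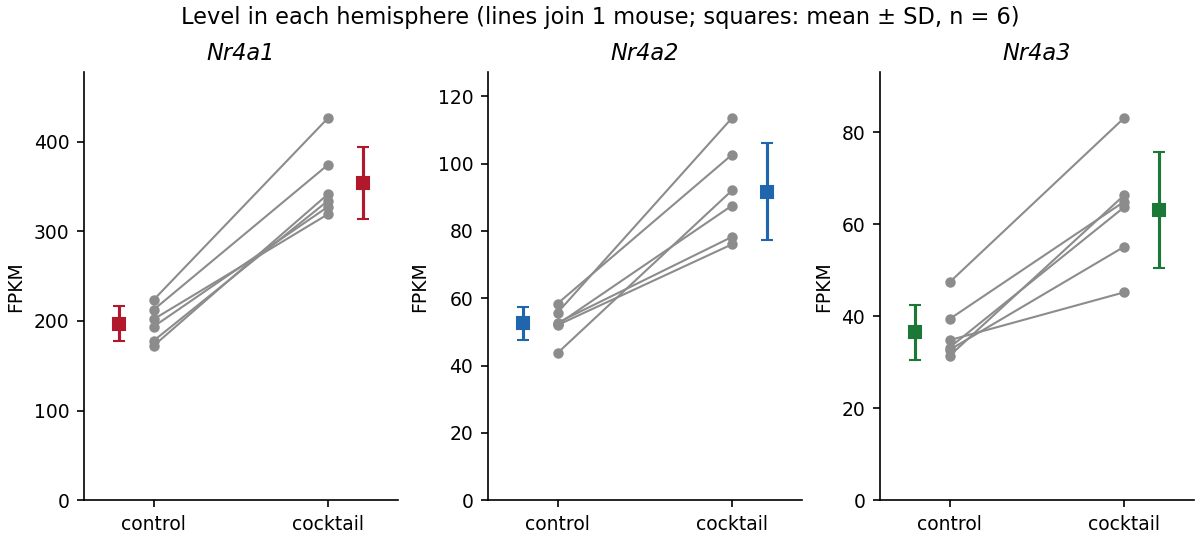
Each panel plots the FPKM of 1 gene in the control and cocktail hemispheres of 6 mice, with a line for each mouse and a square with bars for the mean ± SD (n = 6). Every line rises, and the groups overlap only in Nr4a3, between 45.2 and 47.4 FPKM.

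All 3 genes were higher in the cocktail hemisphere of all 6 mice. Mean Nr4a1 was 196.9 ± 19.8 FPKM in control and 353.8 ± 40.3 in cocktail-treated slices (SD, 6 mice), and it rose by 0.84 ± 0.050 on the log2(FPKM + 1) scale (estimate ± standard error, 95% interval 0.73 to 0.95, limma adjusted p = 5.33e-06 with the mouse as a block). Nr4a2 rose by 0.78 ± 0.070, with a mean of 52.5 ± 4.94 FPKM in control and 91.6 ± 14.4 in cocktail-treated slices (95% interval 0.63 to 0.94, limma adjusted p = 7.72e-05). Nr4a3 rose by 0.76 ± 0.074, with a mean of 36.5 ± 6.03 FPKM in control and 63.1 ± 12.6 in cocktail-treated slices (95% interval 0.60 to 0.92, limma adjusted p = 0.000136). All 3 genes were therefore called higher, against 1.22% of the 12032 loci tested (147 loci). Calls in either direction made up 1.50% (180 loci). Ordered by the size of the rise, Nr4a1 stood at rank 15, Nr4a2 at rank 23 and Nr4a3 at rank 24 of all loci tested. When the signs of the 6 within-mouse changes were permuted (exact, two-sided), each gene had p = 0.0312, the smallest that 6 pairs allow. In bulk tissue, more RNA per cell and more cells of a type that carries the RNA cannot be told apart.

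The size of the rise differed between mice. The FPKM of Nr4a1 in the cocktail hemisphere was 1.76 times that of the control hemisphere in mouse 1, 1.98 in mouse 2, 1.69 in mouse 3, 1.88 in mouse 4, 1.91 in mouse 5 and 1.58 in mouse 6. For Nr4a2 the ratio was 2.04, 1.46, 1.68, 2.11, 1.76 and 1.48 in mice 1 to 6. For Nr4a3 it was 1.75, 1.65, 1.69, 2.11, 1.92 and 1.3. Mouse 6 thus had the smallest rise of Nr4a1 and Nr4a3, and mouse 2 the smallest rise of Nr4a2 although it had the largest of Nr4a1. The control library of mouse 6 was the shallowest, with 10601067 reads against 13544297 to 19768881 in the other 11 libraries, and the part of depth in its smaller rises was not tested. Without mouse 6 the log2 change was 0.88 for Nr4a1, 0.83 for Nr4a2 and 0.84 for Nr4a3.

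**Figure D3:**
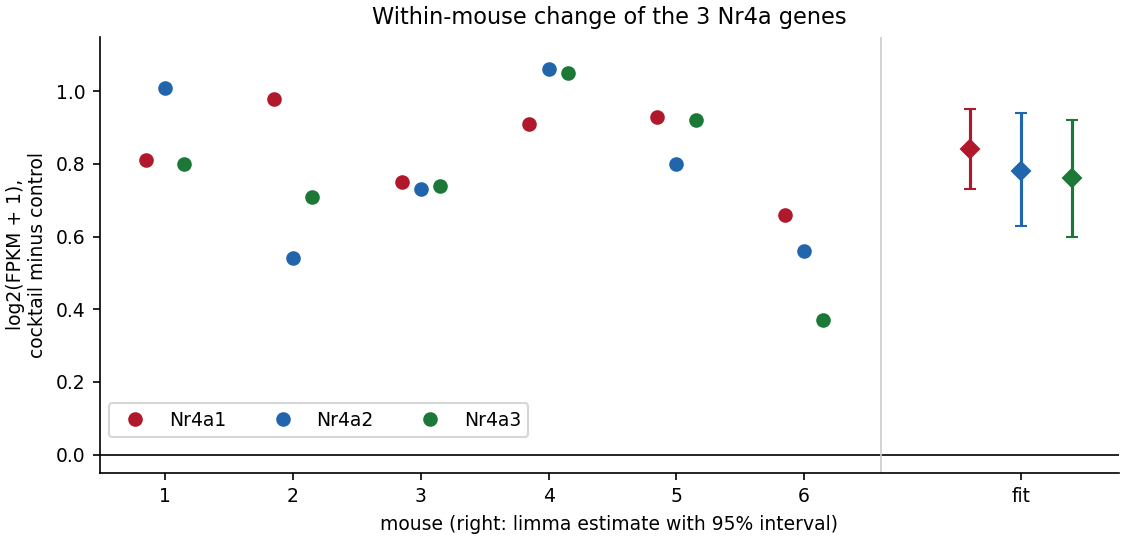
The vertical axis gives the cocktail value minus the control value on the log2(FPKM + 1) scale, with a point for each gene in mice 1 to 6, and on the right the limma estimate of each gene with its 95% interval. All 18 points lie above 0, from 0.37 (Nr4a3, mouse 6) to 1.06 (Nr4a2, mouse 4), and the 3 intervals overlap.

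The 3 genes were not found to differ in how much they rose. The log2 change of Nr4a1 exceeded that of Nr4a2 by 0.06 on average (95% interval -0.19 to 0.30) and that of Nr4a3 by 0.08 (-0.10 to 0.26). Nr4a2 exceeded Nr4a3 by 0.02 (-0.14 to 0.19). Adjusted over these 3 pairs, exact two-sided permutation of the signs in 6 mice gave p = 0.688 for each. The intervals allow differences of up to 0.30 on the log2 scale. Across the 6 mice the changes of Nr4a2 and Nr4a3 had a Pearson correlation of 0.76 (exact permutation p = 0.0722, adjusted p = 0.171) and a Spearman correlation of 0.89 (exact permutation p = 0.0333, adjusted p = 0.1). Pearson's r was 0.74 without the 2 mice farthest from the median change of Nr4a2. The other pairs had lower correlations. For Nr4a1 and Nr4a3 Pearson's r was 0.70 (exact permutation p = 0.114, adjusted p = 0.171) and Spearman's rho 0.37 (exact permutation p = 0.497, adjusted p = 0.746). For Nr4a1 and Nr4a2 Pearson's r was 0.18 (exact permutation p = 0.715, adjusted p = 0.715) and Spearman's rho -0.03 (exact permutation p = 1, adjusted p = 1). Without the 2 mice farthest from the median change of Nr4a1, Pearson's r was 0.86 and 0.33 for these pairs. None of the 3 pairs passed 0.05 after adjustment, and the genes of a pair share libraries.

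The level of the genes followed a fixed order. Nr4a1 was the most abundant in all 12 libraries, followed by Nr4a2 and then Nr4a3. In control slices Nr4a1 was 3.31 to 4.07 times as high as Nr4a2 (median 3.82), and in cocktail-treated slices 3.30 to 4.49 times (median 3.91). Nr4a2 was 1.17 to 1.76 times as high as Nr4a3 in control slices (median 1.45) and 1.17 to 1.73 times in cocktail-treated slices (median 1.48). Each of the 6 ratios, with Nr4a1 over Nr4a3 included, had p = 0.0312 when signs were permuted over the 6 libraries of a group (exact, two-sided), also after adjustment over the 6 ratios. This test covers the spread between mice. It cannot detect a bias of 1 gene that is alike in every library, such as one from its transcript model. The summed FPKM of the family was 285.9 ± 26.0 in control and 508.4 ± 59.5 in cocktail-treated slices (SD, n = 6 each), without overlap. Nr4a1 made up 68.9% ± 2.12 of this sum in control and 69.6% ± 2.55 in cocktail-treated slices, Nr4a2 18.4% ± 0.866 and 18.0% ± 1.41, and Nr4a3 12.8% ± 1.82 and 12.4% ± 1.73. The makeup of the family thus shifted by less than the spread between mice.

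Between 4327 and 12736 reads per library lay behind Nr4a1, between 1511 and 5314 behind Nr4a2 and between 646 and 2274 behind Nr4a3. The counting error of 1 library, from these reads alone, was 0.886% to 1.52% of the value for Nr4a1, 1.37% to 2.57% for Nr4a2 and 2.10% to 3.93% for Nr4a3. Between mice the coefficient of variation was 10% in control and 11.4% in cocktail-treated slices for Nr4a1, 9.43% and 15.7% for Nr4a2 and 16.5% and 20.1% for Nr4a3. Control mouse 1, which held the highest control value of Nr4a3, was also the deepest library and had the lowest summed FPKM over all loci (290155 against 306085 to 321759 in the other 11). Without mouse 1 the log2 change was 0.85 for Nr4a1, 0.74 for Nr4a2 and 0.76 for Nr4a3.

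Nr4a1 already had the highest mean FPKM of the 30 nuclear receptor genes tested in control slices. Among the receptors, Nr4a1 was followed by Thra, the thyroid hormone receptor alpha gene (151.8 ± 7.25 FPKM), and by Nr1d1, which encodes the clock repressor Rev-erb alpha (114.9 ± 28.0 FPKM, SD, n = 6 each). Nr4a2 and Nr4a3 came at ranks 4 and 5, ahead of Nr2f1 (34.0 ± 4.95 FPKM), from which the control level of Nr4a3 differed by less than 1 SD. In cocktail-treated slices the first 6 receptors had the same order, and the ranges given by mean ± SD of Nr1d1 (109.9 ± 14.3 FPKM) and Nr4a2 (91.6 ± 14.4 FPKM) overlapped. Thra had a log2 change of -0.04 (standard error 0.048) and Nr1d1 of -0.04 (standard error 0.066), and neither was called. Of the 46 other receptor genes, 27 passed the filter of a mean FPKM of at least 1. Of these 27, 0 were called with limma in either direction, 1 had an unadjusted p under 0.05 (against 968 of all 12032 loci tested, 8.05%), and 0 were called with voom on recovered reads. Their log2 changes ran from -0.10 for Rarg to 0.21 for Nr2e1, with a median of -0.012 against a median of 0.008 over all loci tested.

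**Figure D4:**
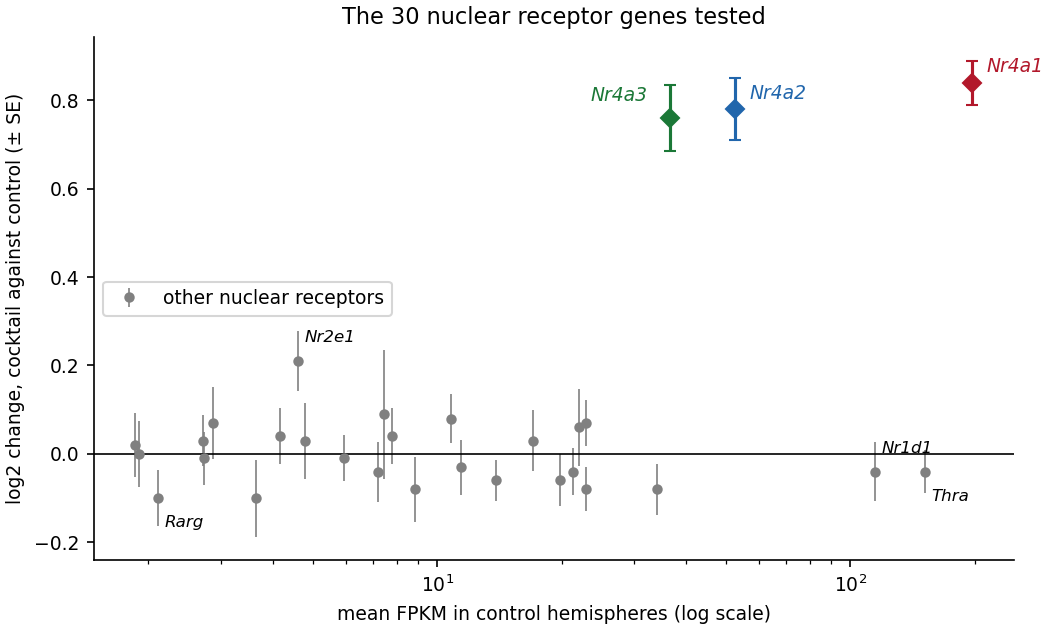
The horizontal axis (log scale) gives the mean FPKM in control slices and the vertical axis the log2 change between cocktail-treated and control slices (± standard error) of 30 nuclear receptor genes. The 3 Nr4a genes sit between 0.76 and 0.84, and the other 27 lie between -0.10 and 0.21.

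Genes that regulate Nr4a transcription were examined next. All 21 genes of a list with CREB and its coactivators, the MEF2 and SRF factors, upstream kinases and class II histone deacetylases passed the filter. With limma 0 were called, 3 had an unadjusted p under 0.05, and 0 were called with voom. Their median log2 change was -0.031, and the range was -0.11 to 0.18. Among the most abundant was Mef2c, a neuronal transcription factor gene, with 113.9 ± 24.6 FPKM in control and 111.1 ± 8.78 in cocktail-treated slices (log2 change -0.01). Of 15 genes for partners and coregulators of the Nr4a proteins, 14 were tested and 0 were called with limma, 0 had an unadjusted p under 0.05, and 0 were called with voom (median log2 change -0.018). The retinoid X receptor gene Rxrg did not pass the filter. Among the 14, the corepressor gene Trim28 had 50.3 ± 2.69 FPKM in control and 50.9 ± 2.58 in cocktail-treated slices, and the RNA-binding protein gene Sfpq 49.8 ± 6.65 and 51.1 ± 4.27 FPKM (SD, n = 6 each).

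Genes linked to the Nr4a proteins as possible targets in other settings were examined as 3 lists. Of 8 genes tied to Nr4a2 in dopamine neurons, only Vip, Aldh1a1 and Ddc passed the filter. With limma 0 were called and 1, Ddc, had an unadjusted p under 0.05, while voom called 0. The log2 change was 0.07 for Vip, 0.05 for Aldh1a1 and 0.20 for Ddc. Vip, a neuropeptide gene of cortical interneurons, had 24.6 ± 2.39 FPKM in control and 25.8 ± 1.68 in cocktail-treated slices, and Aldh1a1, which encodes a retinaldehyde dehydrogenase, 11.7 ± 1.91 and 12 ± 0.608 FPKM. Of 5 endocrine genes only Crh, which encodes corticotropin-releasing hormone, was tested. Its FPKM was 3.96 ± 1.36 in control and 5.31 ± 0.844 in cocktail-treated slices, which gave a log2 change of 0.38 ± 0.111 (estimate ± standard error, limma adjusted p = 0.196, higher in 5 of 6 mice). Without mouse 3, Crh had a log2 change of 0.51 and passed the threshold (adjusted p = 0.0216 from limma).

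Of 13 chaperone genes of the endoplasmic reticulum, a group that has been linked to Nr4a activity in the hippocampus, 1 was called higher and 0 lower. Over all loci tested 1.22% were called higher and 0.274% lower. The called gene was Hspa5, which encodes the chaperone BiP. Its mean was 166.3 ± 13.0 FPKM in control and 217.2 ± 24.0 in cocktail-treated slices, and its log2 change was 0.38 ± 0.061 (limma adjusted p = 0.00746, higher in 6 of 6 mice). The median log2 change of the 13 genes was 0.117, against 0.008 over all loci tested, and 12 of them had a value above 0. Some marker lists described below had similar medians, with 0.107 for oligodendrocytes (6 of 7 above 0) and 0.086 for inhibitory neurons (8 of 8). Excitatory neuron markers had a median of -0.054 (3 of 8 above 0). Of the 12 genes not called, the most abundant was Calr, which encodes calreticulin (128.8 ± 15.5 and 139.3 ± 12.3 FPKM, log2 change 0.12, adjusted p = 0.677 from limma), followed by Hsp90b1, the gene of the chaperone Grp94 (79.9 ± 11.3 and 86.7 ± 7.47 FPKM).

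The Nr4a genes sat in the upper part of the rapid activity-regulated genes, the group of immediate-early genes to which they belong. Of 44 other such genes, all were tested and 38 were called higher and 0 lower, with a median log2 change of 0.564. Over all loci tested 1.22% were called higher, and the median was 0.008. The list was chosen with earlier results of these data known, so the count and the ranks describe this list only. Klf4, a transcription factor gene, had a log2 change of 1.11 (16.8 ± 3.28 to 37.2 ± 5.23 FPKM), Btg2, an antiproliferative gene, of 1.07 (32.2 ± 11.9 to 66.4 ± 16.5 FPKM), and Ptgs2, which encodes cyclooxygenase 2, of 1.04 (21.1 ± 4.19 to 44 ± 3.58 FPKM). Among the 47 genes together, Nr4a1 stood at rank 11 by the size of the rise, Nr4a2 at rank 17 and Nr4a3 at rank 18. The 6 genes not called were Per1, Pim1, Klf2, Homer1, Klf10 and Ier3, with log2 changes between -0.24 for Ier3 and 0.20 for Per1.

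**Figure D5:**
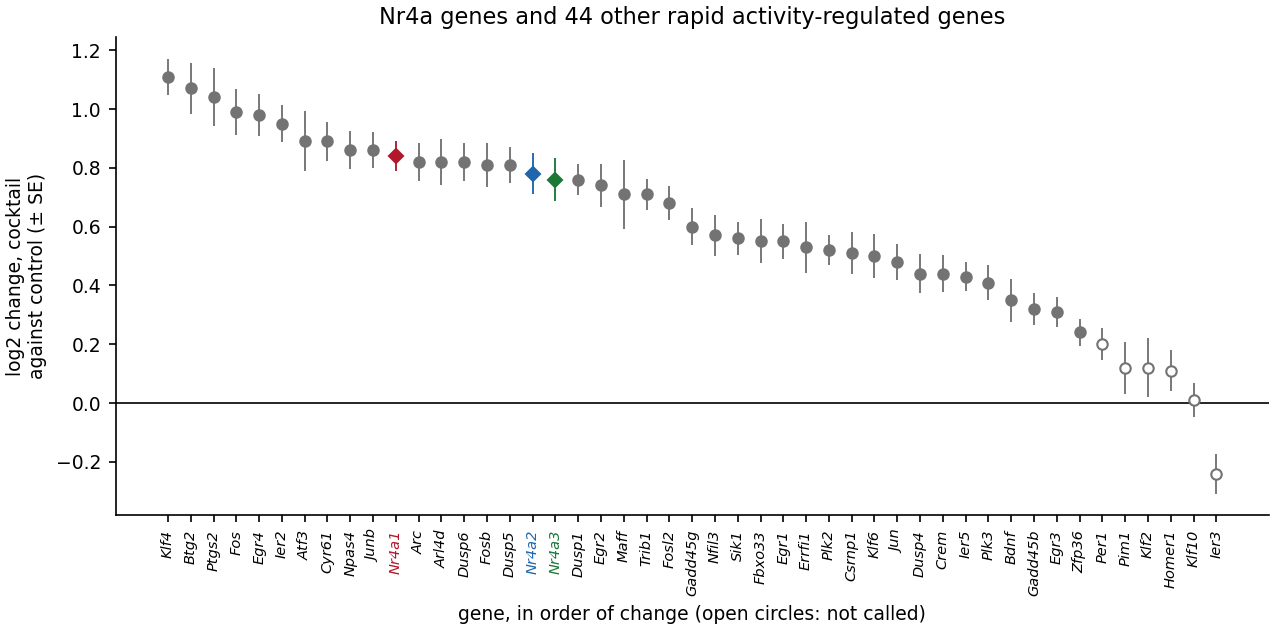
The vertical axis gives the log2 change between cocktail-treated and control slices (± standard error) of the 3 Nr4a genes (diamonds) and 44 other rapid activity-regulated genes (circles), ordered by their change, with open circles for genes not called. The Nr4a genes stand at ranks 11, 17 and 18 of 47.

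The genes most like each Nr4a gene in their response were those with the smallest root mean square difference between the log2 changes of the 6 mice. For Nr4a1 these were Arc (0.076), which encodes a synaptic effector protein, the MAP kinase phosphatase genes Dusp1 (0.105) and Dusp5 (0.106), Ier2 (0.135) and Dusp6 (0.138). For Nr4a2 they were Dusp5 (0.133), the pseudokinase gene Trib1 (0.165), the secreted protease gene Adamts1 (0.176), Dusp1 (0.187) and the transcription factor gene Atf3 (0.188). For Nr4a3 they were Dusp5 (0.117), the transcription factor gene Egr2 (0.122), Trib1 (0.145), Dusp1 (0.147) and the co-chaperone gene Dnajb1 (0.151). Dusp1 and Dusp5 were among the 5 nearest genes of each of the 3. The same measure gave 0.145 between Nr4a2 and Nr4a3, 0.176 between Nr4a1 and Nr4a3, and 0.219 between Nr4a1 and Nr4a2. Each Nr4a gene thus had at least 1 gene outside the family nearer to it than either relative. Such a gene is the nearest of all other loci tested, set against only 2 relatives. The comparison therefore cannot show whether the family responded less alike than other genes. Dusp5, for example, had 21.5 ± 1.81 FPKM in control and 38.3 ± 4.25 in cocktail-treated slices, with log2 changes of 0.54 to 0.95 in the 6 mice.

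The neighbours of the Nr4a genes on their chromosomes were not called. Grasp, 34090 bases before Nr4a1, had a log2 change of 0.03 (standard error 0.054), and Atg101, 9507 bases after it, of 0.08 (standard error 0.060). Around Nr4a2, Kcnj3 had a log2 change of -0.01 and Gpd2 of 0.04, at distances of 1509081 and 113675 bases. Around Nr4a3, Sec61b had a log2 change of 0.01 and Stx17 of 0.00, at 568015 and 41567 bases. The adjusted p from limma was at least 0.826 for each of these 6 genes.

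Marker genes of cell types and of nearby tissue were compared in the same libraries. Over 11 lists with 60 genes tested, 0 were called with limma, 1 had an unadjusted p under 0.05, and 0 were called with voom. The median log2 change of a list lay between -0.086 and 0.107. The claustrum and layer 6b markers, which mark cells that carry Nr4a2, summed to 60.5 to 74.4 FPKM in control and 60.9 to 74.3 in cocktail-treated slices, and 0 of the 6 tested were called (1 had an unadjusted p under 0.05). The excitatory neuron markers summed to 1363.2 to 1504.3 FPKM in control and 1296.7 to 1477.3 in cocktail-treated slices. A sum can be carried by a few genes, so it does not show the level of each marker. Of tissue next to the cortex, the striatum markers summed to 25.7 to 37.5 FPKM in control and 29.0 to 33.3 in cocktail-treated slices, and the hippocampus markers to 40.9 to 49.2 and 35.7 to 55.4. The part of such tissue in the results was not tested. Markers of the choroid plexus summed to at most 2.07 FPKM and those of blood cells to at most 1.6 FPKM in any library.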

How the data were processed

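Poly-A RNA of 12 hemispheres was read from 1 end over 50 bp. Ribosomal RNA was screened out with BWA 0.6.1, and the authors aligned the remaining reads to mm10 with TopHat 1.4.1, keeping a single placement, and deposited FPKM values from Cufflinks 1.3.0 with bounds for each locus. The authors describe the reads as strand specific. The authors' DESeq2 comparison, with mean counts, fold changes, p-values and group means, was not used here.

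Reads behind each FPKM were recovered from its bounds, taken as 2 Poisson standard deviations. Of 36412 values under 20 reads, 82.8% were whole to within 0.05. The reads summed to 10601067 to 19768881 per control library and 13544297 to 17643462 per cocktail library. Counting errors cover counting only.

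The 12032 loci whose mean FPKM reached 1 entered limma 3.58.1 (R 4.3.3) on the log2(FPKM + 1) scale, which understates changes of low genes. The fit had the mouse as a block, a variance trend and Benjamini-Hochberg adjustment at 0.05. Mouse numbers in the labels pair the hemispheres. Deviations from the group mean correlated at 0.216 to 0.406 across loci within a mouse (6 pairs, median 0.337) and at a median of -0.071 between mice (30 pairs). The chi-square distance per locus between libraries of a group was at least 7.8, so no library repeated another of its group. The fit was tested on simulated data.

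Members and lists were chosen with earlier results of these data known, and Nr4a1 is a gene the study itself displayed. Named genes are the members, the 5 loci nearest to each member, in each pathway list the genes called (with more than 6, the 3 largest changes in a direction), with fewer than 2 called also the 2 most abundant genes, and the chromosomal neighbours. The values of 1 gene under this rule are not reported here. Of the genes outside this rule, Coq10b, Tinf2, Ddc, Nr2f1, Nr2e1, Rarg, Rxrg and the 6 rapid genes not called were named after their values were seen. Promoter windows are from RefSeq (9175 tested genes matched) and annotation from GENCODE M21. Python 3.11.15 and matplotlib 3.10.9 made the figures.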

Additional observations from a re-analysis of the deposited data

How the results depend on the processing

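The mouse is the pairing of this design, and the values of the report come from the fit with the mouse as a block. Without the block the number of loci called fell from 180 to 88 (77 higher, 11 lower). With voom on recovered reads it was 118. Leaving out 1 mouse gave 104 (without mouse 4) to 181 (without mouse 6). The log2 changes of the 3 Nr4a genes stayed called in the 15 alternatives run, at 0.79 to 0.88 for Nr4a1, 0.73 to 0.83 for Nr4a2 and 0.70 to 0.84 for Nr4a3. Their largest adjusted p from limma, 0.000588, 0.00269 and 0.00401, came without a filter on low values.

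Leaving out 1 mouse, the difference in log2 change ranged from -0.02 to 0.11 between Nr4a1 and Nr4a2, from 0.04 to 0.12 between Nr4a1 and Nr4a3 and from -0.02 to 0.06 between Nr4a2 and Nr4a3. With 5 mice the exact permutation test of the level ratios cannot go below p = 0.0625. Their mean log2 ratios then ranged from 1.88 to 1.94 (control) and 1.91 to 2.00 (cocktail) for Nr4a1 over Nr4a2, from 2.38 to 2.50 and 2.44 to 2.57 for Nr4a1 over Nr4a3, and from 0.48 to 0.59 and 0.50 to 0.61 for Nr4a2 over Nr4a3.

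Of the 30 other named genes, 14 were called, and 0 of the 14 lost the call in the 15 alternatives. Genes not called changed sign close to 0. With voom the log2 change was 0.02 for Mef2c, -0.02 for Trim28, -0.02 for Grasp, -0.01 for Sec61b and 0.01 for Stx17, and with quantile normalization it was 0.0 for Trim28 and 0.0 for Sec61b. Leaving out 1 mouse gave -0.08 to 0.02 for Nr1d1, -0.12 to 0.04 for Mef2c, -0.01 to 0.04 for Trim28, -0.01 to 0.09 for Sfpq, -0.02 to 0.11 for Aldh1a1, -0.01 to 0.06 for Grasp, -0.08 to 0.04 for Kcnj3, -0.03 to 0.07 for Gpd2, -0.06 to 0.06 for Sec61b and -0.03 to 0.04 for Stx17. The cause was not tested.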
